A study of Caenorhabditis elegans with 2 samples.

Results

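The genes described here encode the histone methylation and acetylation enzymes of Caenorhabditis elegans and core subunits of their complexes. They were chosen by name: every protein-coding gene with the prefix set-, jmjd-, hda-, sir- or mys-, together with met-1, met-2, mes-2, mes-4, utx-1, spr-5, lsd-1, cbp-1, ash-2, wdr-5.1, rbbp-5 and cfp-1. This gave 66 of 19985 protein-coding genes. The measurement was ChIP-seq of eGFP-tagged W03F9.2, a protein annotated with a C2H2-type zinc finger domain, in whole worms. All 66 genes were examined in the same 1 group of 2 biological replicates. These were mixed-sex L4 and young adult animals of strain OP215, which carries the unc-119(ed3) allele on chromosome III and the wgIs215 insertion with the tagged gene. There is no untagged or untreated group here. The labels name W03F9.2 as the antibody target and eGFP-W03F9.2 as the immunoprecipitated fusion, and the level and tissue range of the tagged protein were not measured. In whole animals, strong binding in few cells and weak binding in many cannot be told apart. The lists hold no expression values, so stage and tissue could not be checked against markers.

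Histone tails carry methyl groups on lysines, written by enzymes with a SET domain and removed by LSD1-family and jumonji-domain demethylases. Methylation of H3K4 by COMPASS and MLL-type complexes marks the starts of active genes, whereas H3K9 and H3K27 methylation mark silent chromatin and H3K36 methylation marks transcribed gene bodies. Acetyl groups are added by p300/CBP and MYST-family enzymes and removed by class I and II deacetylases and by the NAD-dependent sirtuins. In worms several of these enzymes act in the germ line, in the silencing of the X chromosome there and in lifespan.

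The lists give a signal for each peak in the units of the authors' caller, and each list has its own scale. The pooled list, made from both replicates together, held 30000 entries including background. The optimal set held the 2409 entries of highest signal in it, kept by the authors' reproducibility step, with signals from 48.5 upward and a median of 69.8. The highest nuclear signal was 2453. A promoter reached from 1000 bp before the annotated gene start to 200 bp past it. Of all optimal-set peaks, 87.5% were 350 bp wide. The precision of the summit positions was not measured, and they are taken as approximate. Read depths per sample are unknown.

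The sequences under the strongest member peaks are shown first, because the facing pair described later was noticed in them. The counts of genes and summits do not depend on them. They are from the WBcel235 (ce11) reference genome of RefSeq, read 5′ to 3′ on the strand of the named gene and outside annotated exons. Capitals mark 2 things: TGGC facing GCCA with 5 bases between them, a pair that reads alike on both strands, and the 8 bases CTGCGTCT in either orientation. For the narrow peaks the line gives the peak itself, and for the 350 bp peaks the summit with 75 bp on either side.
set-16, chrIII:13643627-13643818: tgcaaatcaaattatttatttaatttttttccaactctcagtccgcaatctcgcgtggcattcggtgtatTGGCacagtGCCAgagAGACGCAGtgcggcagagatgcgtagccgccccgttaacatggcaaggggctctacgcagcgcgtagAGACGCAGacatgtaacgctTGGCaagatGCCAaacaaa
hda-6, chrIV:5364307-5364397: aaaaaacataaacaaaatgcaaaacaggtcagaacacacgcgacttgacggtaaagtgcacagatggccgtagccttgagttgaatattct
jmjd-4, chrIII:10334083-10334218: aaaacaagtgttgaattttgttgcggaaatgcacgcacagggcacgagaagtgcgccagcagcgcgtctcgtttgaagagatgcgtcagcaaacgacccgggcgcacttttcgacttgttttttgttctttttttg
set-26, chrIV:16656400-16656528: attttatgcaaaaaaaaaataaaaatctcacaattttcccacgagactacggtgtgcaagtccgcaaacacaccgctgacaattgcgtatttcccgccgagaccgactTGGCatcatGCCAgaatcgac
cbp-1, chrIII:9765530-9765680: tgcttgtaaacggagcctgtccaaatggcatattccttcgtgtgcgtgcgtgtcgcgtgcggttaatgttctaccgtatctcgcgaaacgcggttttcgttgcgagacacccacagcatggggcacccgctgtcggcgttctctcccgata
jmjd-1.2, chrIV:4660454-4660604: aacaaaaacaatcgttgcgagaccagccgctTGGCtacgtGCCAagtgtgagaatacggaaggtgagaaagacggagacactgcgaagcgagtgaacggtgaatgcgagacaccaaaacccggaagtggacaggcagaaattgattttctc
set-2, chrIII:4930354-4930504: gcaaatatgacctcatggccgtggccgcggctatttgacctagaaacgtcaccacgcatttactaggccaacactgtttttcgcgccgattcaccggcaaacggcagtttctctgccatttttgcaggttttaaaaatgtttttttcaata
set-21, chrIV:4390601-4390751: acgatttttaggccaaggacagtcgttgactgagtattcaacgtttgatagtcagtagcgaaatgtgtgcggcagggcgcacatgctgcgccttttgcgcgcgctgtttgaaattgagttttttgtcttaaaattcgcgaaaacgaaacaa
mes-2, chrII:14383774-14383924: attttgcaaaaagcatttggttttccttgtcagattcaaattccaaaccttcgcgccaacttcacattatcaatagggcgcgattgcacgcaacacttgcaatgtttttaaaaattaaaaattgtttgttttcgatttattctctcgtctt

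The set-16 peak holds 2 of the facing pairs and 2 copies of the 8 bases. The set-26 and jmjd-1.2 sequences hold 1 facing pair each, and the other 6 sequences hold neither mark.

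Of the 66 genes, 15 (22.7%, exact 95% interval 13.3 to 34.7) had an optimal-set summit in the promoter, against 11.7% of all protein-coding genes. The interval covers only counting error over genes. The 15 genes were set-16, set-2 and set-17; mes-2, set-4 and met-1; set-26 and set-21; jmjd-1.2 and jmjd-4; cbp-1, mys-1 and mys-4; and hda-6 and hda-1. A summit anywhere in the pooled list was found for 45 of the 66 (68.2%), against 40.1% of all protein-coding genes, so 30 genes had only an entry below the optimal set, with highest signals from 10.7 to 47.7, and 21 had none. The highest signal per gene ranged from 49.1 at mys-4 to 282 at set-16, with a median of 105. Over all protein-coding genes with an optimal-set promoter summit the median was 80.2, with quartiles of 62.1 and 112, and 9 of the 15 genes lay above that median. Membership was not tested for enrichment, and these shares and medians are descriptions.

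**Figure D1:**
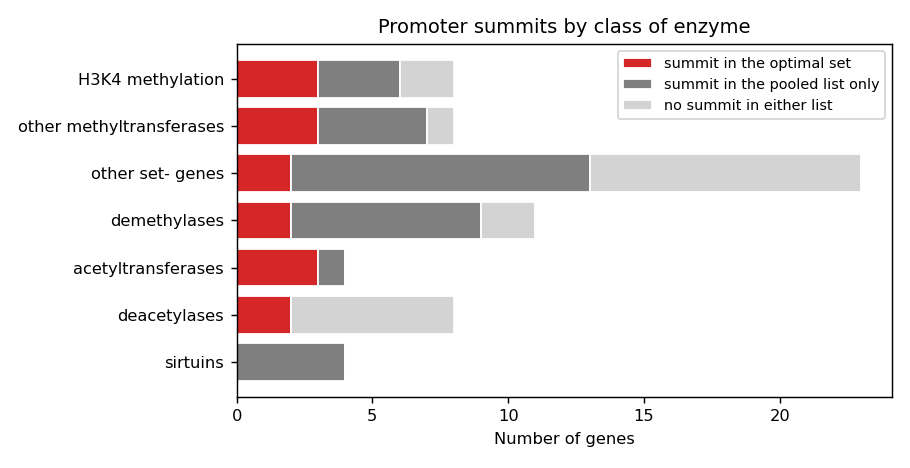
Number of genes in each class of enzyme (horizontal axis), divided by whether the promoter held an optimal-set summit, a summit of the pooled list only, or neither. Acetyltransferases had optimal-set summits in 3 of 4 genes and sirtuins in 0 of 4, while 6 of 8 deacetylases had no entry at all. Over all protein-coding genes, 11.7% had an optimal-set summit and 40.1% had any pooled-list summit.

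Among the H3K4 methyltransferases and COMPASS subunits, 3 of 8 genes had an optimal-set summit (37.5%, exact 95% interval 8.52 to 75.5, against 11.7% of all protein-coding genes). set-16, the worm MLL3/4-type H3K4 methyltransferase gene, had the strongest peak of all 66 genes. Its signal was 282 in the pooled list (rank 47), 113 in replicate 1 (rank 45) and 165 in replicate 2 (rank 53), so both replicates placed it near the top. The summit lay 183 bp upstream of the set-16 start and 163 bp upstream of the start of drr-2, a divergent gene for an RRM-domain protein, and the starts are 346 bp apart. set-2, the SET1-type catalytic subunit of COMPASS, had a peak to itself, with 105 in the pooled list, 41.6 in replicate 1 and 69.8 in replicate 2, centred 225 bp upstream. set-17, a gene for an H3K4 methyltransferase active in the germ line, had a weaker peak of 60.9, with 28.8 in replicate 1 and 28.2 in replicate 2. That peak ranked 1351 in replicate 1 and 2901 in replicate 2, so it was among the top 2409 entries of the first list only. It lies 181 bp upstream of set-17 and 225 bp upstream of the divergent gene T21B10.4.

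The subunit genes wdr-5.1, cfp-1, ash-2 and rbbp-5 had no optimal-set summit in the promoter window. wdr-5.1, the WD-repeat subunit, had an entry of 28.5 at rank 5597, with 9.73 in replicate 1 and 20.4 in replicate 2. cfp-1, the CXXC zinc finger subunit, reached 20.3 and ash-2 reached 15.6 in the pooled list within their windows. rbbp-5 and set-30, a SET- and MYND-domain gene, had no pooled entry in the window. In the ash-2 window, replicate 2 had an entry of 32.06 at rank 2343, 40 bp downstream of the start. The entry of replicate 1 in that window had 11.67 at rank 8430, 626 bp upstream. The replicates differed at rbbp-5: replicate 2 had an entry of 71.4 at rank 409, 186 bp upstream of the start, while neither replicate 1 nor the pooled list had a summit within 1400 bp of the start. At ash-2 an optimal-set peak of 160 (rank 168) lay outside the window, 463 bp downstream of the gene start, in an annotated exon. It lay 125 bp upstream of a further annotated transcript start of ash-2, with 88.5 in replicate 1 (rank 68) and 75.8 in replicate 2 (rank 349). It also fell in the promoter window of Y17G7B.20.

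Among the other methyltransferases with a known mark, likewise 3 of 8 genes (37.5%) had an optimal-set summit, and none of those summits was shared with another protein-coding promoter. mes-2, the Enhancer of zeste homologue that methylates H3K27, had 88.0 in the pooled list, 41.2 in replicate 1 and 42.4 in replicate 2, centred 124 bp upstream. set-4, which makes H4K20 di- and trimethylation, had 70.4, with 31.3 in replicate 1 and 43.3 in replicate 2, centred 286 bp upstream. met-1, an H3K36 methyltransferase gene, had 56.5, with 31.9 in replicate 1 and 27.8 in replicate 2, and its summit, 104 bp upstream, lies in an intron of C43E11.12. Within the replicate lists mes-2 ranked 586 and 1387, set-4 ranked 1132 and 1329, and met-1 ranked 1091 and 2966, so set-4 had the nearest ranks of the 3. Of the H3K9 methyltransferase genes, met-2 had an entry of 27.7 at rank 5866, set-25 one of 16.4 and set-32 one of 22.2. set-1, the H4K20 monomethyltransferase gene, had 36.02 at rank 3845, 519 bp upstream, with 21.1 in replicate 1 and 20.7 in replicate 2. mes-4, an H3K36 methyltransferase gene of the germ line, had no entry in the pooled list.

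The 23 other set- genes had 2 optimal-set summits (8.70%, exact 95% interval 1.07 to 28.0), near the 11.7% of all protein-coding genes, and both were shared with a divergent gene. At set-26, whose product has a PHD finger and a SET domain, the peak had 152 in the pooled list (rank 199), 59.6 in replicate 1 and 96.7 in replicate 2. It lay 562 bp upstream of set-26 and 168 bp upstream of tsr-2, a gene for a pre-rRNA-processing factor homologue. At set-21 the peak had 106, with 35.8 in replicate 1 and 69.1 in replicate 2, 168 bp upstream of set-21 and 86 bp upstream of the ribosomal protein gene rpl-7A. Both summits were thus nearer to the neighbour. set-9, a close paralogue of set-26, had only an entry of 27.2 at rank 6025, with 11.8 in replicate 1 and 19.0 in replicate 2. The remaining set- genes with the higher sub-threshold entries were set-3 (42.4, rank 2993), set-6 (31.7, rank 4695) and set-23 (28.7, rank 5542), and set-23 had no overlapping entry in replicate 1. No pooled entry was found for set-5, set-8, set-12, set-13, set-15, set-19, set-20, set-24, set-27 and set-29.

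By name, 11 genes were classed as demethylases, and the activity of each product was not checked. Of these, 2 had an optimal-set summit (18.2%, exact 95% interval 2.28 to 51.8, against 11.7% of all protein-coding genes). Both are jumonji-domain genes. jmjd-1.2, a PHF8-type demethylase of H3K9 and H3K27, was the only one of the 66 genes with 2 optimal-set peaks. The stronger had 157 in the pooled list (rank 177), 64.0 in replicate 1 and 96.8 in replicate 2, at 462 bp upstream. The weaker had 52.6, with 21.5 in replicate 1 and 19.4 in replicate 2, at 262 bp upstream, and these 350 bp intervals overlap. Both fell in the promoter of F29B9.11, a divergent gene annotated as a cytochrome c oxidase VIIc polypeptide, and the stronger was nearer to its start, at 328 bp. jmjd-4 had 139, with 50.2 in replicate 1 and 99.5 in replicate 2, in the 259 bp between its start and that of mev-1, a gene for a subunit of respiratory complex II. The jmjd-4 summit lay 136 bp from the jmjd-4 start and 123 bp from the mev-1 start.

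The LSD1-family genes were below the optimal set. lsd-1 had 43.7 at rank 2837, with 16.5 in replicate 1 and 25.9 in replicate 2, and spr-5, the H3K4 demethylase gene of the germ line, had 10.7. The H3K27 demethylase genes jmjd-3.1, jmjd-3.2 and jmjd-3.3 had entries of 17.5, 12.8 and 21.4, jmjd-2 one of 13.4 and jmjd-5 one of 14.7. utx-1, an H3K27 demethylase gene, and jmjd-1.1 had none.

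Acetyltransferase genes had the highest share, 3 of 4 against 11.7% of all protein-coding genes, with an exact 95% interval of 19.4 to 99.4% that shows how little a class of this size can resolve. cbp-1, the p300/CBP homologue, had 166 in the pooled list (rank 155), 71.25 in replicate 1 and 91.6 in replicate 2. Its summit lay 904 bp upstream, in intergenic sequence and in no other promoter, and weaker entries of 32.5 and 16.7 lay nearer to the start. mys-1, the TIP60 homologue, had 73.9, with 28.0 in replicate 1 and 46.3 in replicate 2, centred 287 bp upstream. mys-4, a MYST-family gene, had 49.1, the weakest optimal-set peak among these genes, 9 bp downstream of its start, in an exon. With 13.85 in replicate 1 (rank 6018) and 27.6 in replicate 2 (rank 2998), mys-4 was outside the top 2409 entries of both single lists. mys-2, the MOF homologue, had an entry of 15.2.

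Of the 8 deacetylase genes, 2 had an optimal-set summit (25%, exact 95% interval 3.19 to 65.1, against 11.7% of all protein-coding genes). The other 6 had no pooled entry, so 25% of the class had one against 40.1% of all protein-coding genes, a share inside the same interval. hda-6, a class II deacetylase gene of the HDAC6 type, had 168 (rank 147), with 68.07 in replicate 1 and 100.8 in replicate 2. Its summit lay 42 bp upstream of hda-6 and 211 bp upstream of F41H10.4, a divergent gene for a GRIP-domain protein. hda-1, the class I HDAC of the NuRD complex, had 69.4, with 22.2 in replicate 1 and 44.1 in replicate 2. That summit lay 962 bp upstream of hda-1 but 298 bp upstream of the divergent gene ril-1, at the edge of the window used. hda-2, hda-3, hda-4, hda-5, hda-10 and hda-11 had no pooled entry. hda-11 had an entry of 27.5 at rank 1496 in replicate 1, 93 bp upstream, and none within 1400 bp in replicate 2 or the pooled list.

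All 4 sirtuin genes had a pooled entry, against 40.1% of all protein-coding genes. None was in the optimal set, against 11.7% of all protein-coding genes, and the exact 95% interval allows a share of up to 60.2%. sir-2.2, a mitochondrial sirtuin gene, and sir-2.1, the SIRT1 homologue, had the highest sub-threshold entries of all 66 genes. sir-2.2 had 47.7 at rank 2475, just under the lowest optimal-set signal of 48.5, with 7.49 in replicate 1 (rank 19143) and 43.0 in replicate 2 (rank 1350). Replicate 1 had a further entry there of 13.78 at rank 6074, 60 bp upstream. sir-2.1 had 44.5 at rank 2748, with 19.2 in replicate 1 and 32.4 in replicate 2. The ranks of the overlapping entries thus differed widely at sir-2.2. sir-2.3, which neighbours sir-2.2, had 22.3, and sir-2.4 had 20.0. Within sir-2.2 a further optimal-set peak of 81.2 lay 972 bp downstream of the gene start, in an intron and 217 bp upstream of a later transcript start, with 37.8 in replicate 1 and 44.7 in replicate 2.

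**Figure D2:**
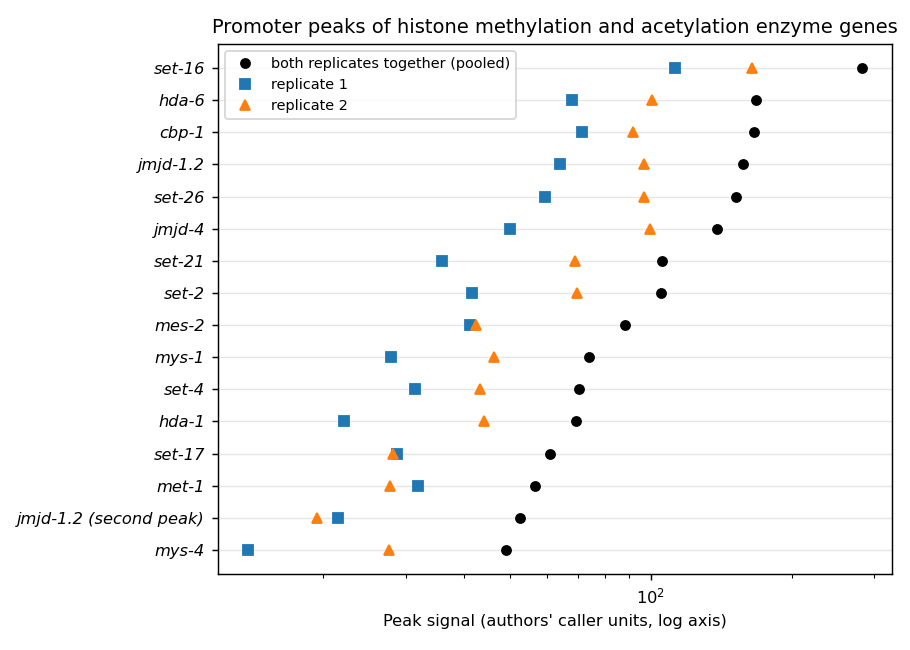
Signal of the 16 optimal-set promoter peaks of the 15 genes (horizontal log axis, caller units) in the pooled list and in each replicate list, without error bars because each point is 1 deposited value. set-16 leads in all 3 lists, and 13 of the 16 peaks are higher in replicate 2 than in replicate 1.

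Across the 16 peaks, signal was higher in replicate 2 in 13, with a median log2 ratio of 0.58 and a range from -0.20 at met-1 to 0.99 at jmjd-4, hda-1 and mys-4. Over the 2378 optimal-set peaks with an overlapping entry in both lists the median was 0.66 and the SD across peaks 0.69, so the members did not stand apart from the whole list in this. Of the 16 peaks, 12 overlapped an entry among the top 2409 of each replicate. The exceptions were those at mys-4, met-1 and set-17 and the weaker one at jmjd-1.2. The same share over all optimal-set peaks was not computed. In the top 2409 entries of replicate 1 alone, 15 of the 66 genes had a promoter summit, against 10.9% of all protein-coding genes, and 14 of them were among the 15 of the optimal set. In those of replicate 2, also 15 genes had one, against 11.8% of all protein-coding genes, and 11 were shared with the optimal set. Replicate 2 lacked mys-4, met-1 and set-17 by rank and hda-1 by position, since its summit there lay 1022 bp upstream. It gained ash-2, rbbp-5, sir-2.1 and sir-2.2.

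Every 36-base stretch of 15 of the 16 peak intervals occurred once in the reference genome. The exception was set-21, where 270 of 315 stretches (85.7%) did. No source used here gives the read length or the treatment of reads with several matches.

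**Figure D3:**
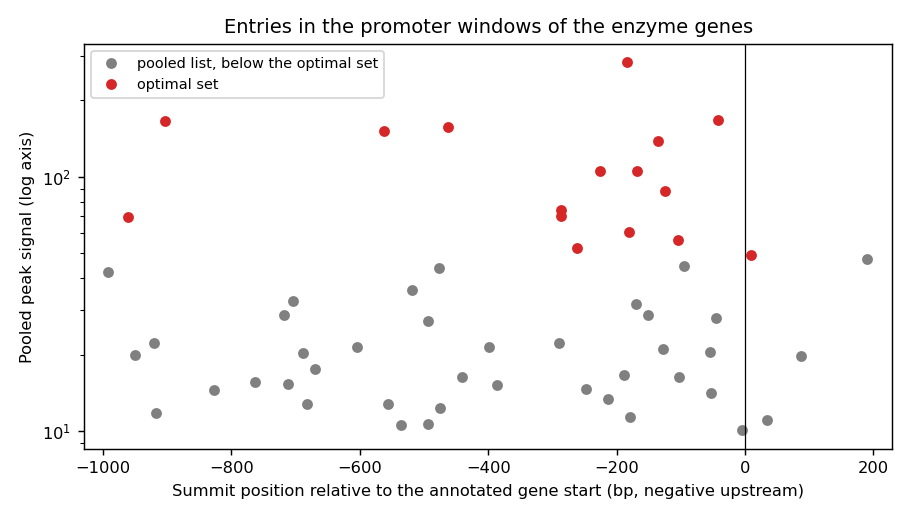
Position of every pooled-list summit in the promoter windows of the 66 genes relative to the annotated start (horizontal axis, bp) against its signal (vertical log axis). Of the 16 optimal-set peaks, 11 lie within 300 bp upstream of the start, and those of cbp-1 and hda-1 lie at 904 and 962 bp.

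The median summit was 204 bp before the enzyme gene's start, and 11 of 16 (68.8%) lay within 300 bp upstream. Over all 2393 pairs of a protein-coding gene and an optimal-set summit in its promoter, the median was 238 bp upstream and the share within 300 bp was 58.4%. Of the 16 member summits, 9 (56.2%) also fell in the promoter of another protein-coding gene, against 57.8% of all pairs. In all 9 the other gene lay divergently on the opposite strand. The share of divergent neighbours among all shared pairs was not computed. The member's own start was the nearest protein-coding start for 10 of the 16 (62.5%), against 69.2% of all pairs. The 6 others were those of set-16, set-26, set-21, jmjd-4 and hda-1 and the stronger one of jmjd-1.2. Hence 7 of the 15 genes, namely set-2, mes-2, set-4, met-1, cbp-1, mys-1 and mys-4, had a summit that fell in no other protein-coding promoter. A shared summit does not tell which of the facing genes, if either, it belongs to.

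The split by the presence of a facing gene, like that by the X chromosome, was chosen after the values were seen. An opposite-strand start lay in the promoter window of 12 of the 66 genes (18.2%), against 18.1% of all protein-coding genes. Of those 12, 7 had an optimal-set summit (58.3%, exact 95% interval 27.7 to 84.8), against 32.3% of all genes so arranged. Without such a start, 8 of 54 had one (14.8%, exact 95% interval 6.62 to 27.1), against 7.12% of all such genes. The 8 include hda-1, because the start of its divergent neighbour ril-1, 1260 bp away, lies beyond the window. The 5 genes with an opposite-strand start and no optimal-set summit were ash-2, rbbp-5, hda-11, set-31 and set-32.

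**Figure D4:**
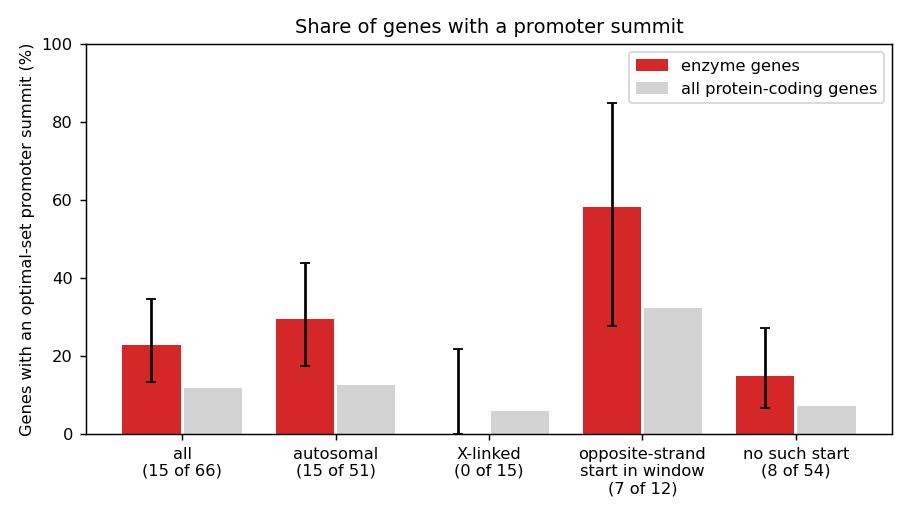
Share of genes with an optimal-set promoter summit (vertical axis, percent) for the enzyme genes and for all protein-coding genes, over all genes and by chromosome and arrangement. Error bars are exact 95% intervals over the enzyme genes, and the bar for the 15 X-linked genes is at 0.

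The X chromosome holds 15 of the 66 genes, among them 5 of the 11 classed as demethylases, and none had an optimal-set promoter summit. With 0 of 15, a share of up to 20% is allowed, by 3 counts over 15 genes, or 21.8% by the exact interval drawn in the plot of shares. Among all X-linked protein-coding genes the share was 5.86%, so 0 among 15 is close to that background. Of the 15, 8 had a weaker pooled entry, led by sir-2.2, lsd-1 and set-6, and 7 had none, namely utx-1, hda-4, set-8, set-12, set-19, set-20 and set-30. The pooled-list share was 40.1% over all protein-coding genes and was not computed for X-linked genes alone. On the autosomes 15 of 51 genes had an optimal-set summit (29.4%, exact 95% interval 17.5 to 43.8), against 12.5% of all autosomal protein-coding genes. By chromosome these were 4 of 10 on III, 4 of 9 on IV, 3 of 14 on II, 2 of 10 on I and 2 of 8 on V. The share of all protein-coding genes was not computed for each autosome, so these counts have no background beside them.

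Within 50 bp on either side of the summits, GC content had a median of 50% over the 16 member peaks, with a range from 22.8% at set-17 to 61.4% at set-16. It was 44.6% over 2389 nuclear optimal-set peaks and 29.7% over the 10000 pooled entries of lowest rank. CTGCGTCT on either strand lay in the windows of set-16 and of the weaker jmjd-1.2 peak, 2 of 16 (12.5%), against 8.83% of the optimal set and 0.55% of the lowest-ranked entries. GAGAGA was found at set-16 alone (6.25%, against 21.7% of the optimal set). TTCCCGC was found at set-26 alone (against 3.01%), CACGTG at met-1 alone (against 4.10%) and TATAAA at set-17 alone (against 6.49%). In the lowest-ranked entries these 4 had shares of 5.03% for GAGAGA, 1.26% for TTCCCGC, 1.51% for CACGTG and 15.4% for TATAAA. The other 11 of the 16 windows (68.8%) held none of the 5 sequences, against 63.7% of the optimal set. No match here says only that the letters are not in this window.

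The facing TGGC and GCCA, 5 bases apart, were noticed in the printed sequences of set-16, set-26 and jmjd-1.2, so their presence in those 3 of 16 windows (18.8%) is no support for anything about the members. Their centres lay 30 bp from the set-16 summit, 31 bp from that of set-26 and 38 bp from that of jmjd-1.2, and a second pair lay 73 bp from the set-16 summit. Over the nuclear optimal set, 37 of 2389 windows (1.55%) held the pair, including those 3, against 12 of the 10000 lowest-ranked entries (0.12%). Of the 37, 30 were among the 1185 windows of higher signal (2.53%) and 7 among the other 1204 (0.581%). Of the 2409 entries just below the optimal set, 14 held it (0.581%). At spacings from 0 to 12 bases, 5 was the most frequent, followed by 0 with 18 windows (0.753%), and no other spacing exceeded 5 windows. The GC content of these windows differed as given above, and its part in the shares was not tested.

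**Figure D5:**
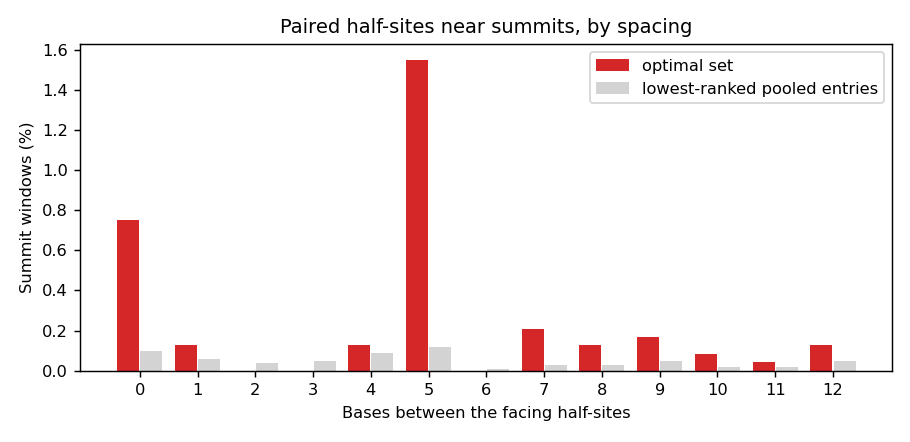
Share of summit windows (50 bp on either side) (vertical axis, percent) that hold the facing half-sites at each number of bases between them (horizontal axis), for 2389 nuclear optimal-set peaks and the 10000 lowest-ranked pooled entries. The optimal set has its highest share, 1.55%, at 5 bases and its second highest, 0.753%, at 0.

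Genes for other proteins of histone methylation and acetylation gave further values. Of 39 such genes, 20 (51.3%) had an optimal-set promoter summit, against the 11.7% of all protein-coding genes given above. The list was chosen with earlier results of these data known, so this difference is no support for enrichment. The median of the highest signal per gene was 99.8, and 11 of the 20 summits were shared with another protein-coding promoter. The strongest was at lin-53 (231), the RbAp48-type histone-binding subunit of several complexes, whose summit is shared with nra-2. mrg-1, a chromodomain gene related to MRG15, followed with 171, with 60.0 in replicate 1 and 104 in replicate 2, shared with spcs-2.

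Among the acetyltransferase genes and their partners, pcaf-1, the GCN5/PCAF homologue, had 150 (64.9 in replicate 1 and 88.1 in replicate 2), 29 bp upstream of its start. hat-1 had 148 (68.3 and 82.6 in replicates 1 and 2), 203 bp upstream. epc-1, the Enhancer of Polycomb homologue, had 122, shared with Y111B2A.12. The pcaf-1 and hat-1 summits fell in no other protein-coding promoter.

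Among methylation genes, dot-1.1, an H3K79 methyltransferase gene, had 123, shared with zwl-1, and wdr-5.3, a paralogue of wdr-5.1, had 122, shared with mre-11. dpy-30, a COMPASS subunit gene, had 75.4 (24.4 in replicate 1 and 53.4 in replicate 2) to itself, and hcf-1 had 67.2, shared with swd-2.2. mes-6, the partner of MES-2 in the H3K27 methyltransferase complex, had 2 summits, the stronger with 88.3 and shared with tag-77. lin-59, related to ASH1, had 77.0 and the arginine methyltransferase gene prmt-1 had 90.0, the latter shared with cdkr-3. The H3K4 demethylase gene rbr-2 had 112, but with 27.1 in replicate 1 and 85.5 in replicate 2, and the jumonji genes jhdm-1 and jmjc-1 had 109.5 and 67.15, the latter shared with T28F2.2.

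Among corepressor and reader genes, rcor-1 had 87.5, sin-3 had 76.0 and spr-1, a CoREST gene, had 62.8, shared with snap-1. spr-1 had 10.4 in replicate 1 and 42.3 in replicate 2. bet-2, a bromodomain gene on the X chromosome, had 2 summits, the stronger with 112, and cec-3, a chromodomain gene, had 49.6, shared with T09A5.15 and sds-22. Of the 19 genes without an optimal-set summit, 12 had a weaker pooled entry (wdr-5.2, mes-3, psr-1, prmt-5, ada-2, gfl-1, lin-40, hpl-2, lin-65, cec-1, cec-6 and bet-1) and 7 had none (trr-1, rba-1, let-418, chd-3, hpl-1, lin-61 and cec-4).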

How the data were processed

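The authors deposited ce11 and ce10 lists of peaks for each replicate and for both together. Only the ce11 lists were used. Per the accompanying notes, each list was made from the replicate alignments and a further file common to both replicates, and the labels name a possible control. No source used here names the aligner or the peak caller. Peak signal is a value deposited by the authors in their caller's units, with unstated normalization.

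Peak coordinates are in ce11, the UCSC name of WBcel235. Gene models came from Ensembl release 115 and sequences from the RefSeq genome. The summit is the list start plus the deposited offset. A summit counted for every protein-coding gene whose promoter (1000 bp upstream to 200 bp downstream) held it. Replicate entries were matched by an overlap of at least 1 bp and the nearest summit. The assignment of summits to promoters was tested on simulated data. With 1 group of 2 replicates no test between groups was possible, and read depth is unknown. Intervals are exact 95% binomial intervals over genes. Short sequences were searched on both strands within 50 bp of the summit. Python 3.11.15, NumPy 2.4.6, SciPy 1.17.1 and matplotlib 3.10.9 were used.

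The genes, classes, partner list and alternatives were chosen with earlier results of these data known. Named were all genes with an optimal-set summit, the 10 highest other entries, genes without an entry, and genes sharing a summit. Other genes named with values, the further replicate entries, the gene-body peaks, the splits by the X chromosome and facing genes, the paired half-sites and the check of unique stretches were chosen after values were seen. Windows of other sizes, every transcript start, the 1204 strongest peaks, single replicates, the nearest start, unshared summits and peak overlap were tried as alternatives.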

Additional observations from a re-analysis of the deposited data

How the results depend on the processing

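Counting only summits in no other protein-coding promoter left 7 of the 66 genes (10.6%) in place of 15, against 4.97% of all protein-coding genes. It left 9 of the 39 partner genes in place of 20. Counting a summit for its nearest start left 10 (8.17% over all genes), without hda-1, jmjd-4, set-16, set-21 and set-26. The narrow window (500 bp upstream to 100 bp downstream) left 12 (9.52% over all genes), without cbp-1, hda-1 and set-26. The wide window (2000 bp upstream to 500 bp downstream) gave 22 (14.7% over all genes), adding ash-2, jmjd-2, set-1, set-27, set-5, sir-2.1 and wdr-5.1. Shared summits went from 9 to 16 with that window. The shared share over all genes was not computed for it, so that count has no background. Every transcript start gave 17 (12.2% over all genes), adding ash-2 and sir-2.2. The 1204 strongest peaks held 11 (7.11% over all genes), without hda-1, met-1, mys-4 and set-17. Peak overlap in place of the summit gave 15 (12.3% over all genes). Pooled-list counts ran from 34 to 53 of 66 as the setting changed. The share of all protein-coding genes was not computed under those settings, so the range has no background beside it. The median signal was 139 in those strongest peaks and 96.6 with each peak once. In single replicates it was 41.2 (without replicate 2) and 69.8 (without replicate 1), on each list's own scale. Leaving out either replicate gave 15 genes (10.9% of all genes without replicate 2 and 11.8% without replicate 1) and 20 partner genes. No paired analysis was possible because there is only 1 group. Unknown depth limits what a missing entry means.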

Other observations

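Beyond the promoter windows, 3 of the 66 genes held an optimal-set summit in the gene body. Those of ash-2 and sir-2.2 are given above. The third lay in an intron of set-18, a SET-domain methyltransferase gene, 2450 bp downstream of its start, with a signal of 62.0 in the pooled list, 24.9 in replicate 1 and 39.4 in replicate 2. It fell in no protein-coding promoter. The share of all protein-coding genes with a gene-body summit was not computed, so the count of 3 has no background beside it.

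The promoter of W03F9.2 itself held 1 optimal-set summit, with a signal of 174. How far the transgene contributes template there was not tested.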
